A study of Mus musculus with 8 samples.

Results

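The class III receptor tyrosine kinases (RTKs) are 5 related receptors, Flt3, Kit, Csf1r, Pdgfra and Pdgfrb, and their transcripts were followed in AML bone marrow (BM) that carried 2, 1 or 0 functional Gab2 alleles. The genes were chosen by family membership, and all 5 of 5 are among the 13305 genes of the deposited count table. Whole BM of 3 AML WT (Gab2+/+), 2 AML HET (Gab2+/-) and 3 AML KO (Gab2-/-) mice was sequenced as 1 library per mouse. All 8 mice are C57BL/6N and carry Mx1-Cre, a Dnmt3a+/- genotype and Flt3ITD/ITD, so that no library comes from a mouse with unmutated Flt3. Cre is driven by the interferon-responsive Mx1 promoter and, per the study, acted without induction, the Dnmt3a allele is lost by deletion of a floxed exon, and the Flt3-ITD and the Gab2 knockout are constitutive in every cell. The labels give no age for these mice.

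Class III RTKs share an extracellular part of immunoglobulin-like domains, a juxtamembrane segment that holds the kinase in check, and a kinase domain split by an insert. Binding of a dimeric ligand pairs the receptors, which phosphorylate each other and recruit Grb2, Shp2, PI3K and Src family kinases, and Gab2 is a docking protein that Grb2 brings to such receptors. In BM, Flt3 marks multipotent, lymphoid and dendritic progenitors, Kit marks stem cells, progenitors and mast cells, Csf1r marks monocytes, macrophages and osteoclasts, and the PDGF receptors mark mainly stromal and perivascular cells. The ITD, a tandem duplication within that juxtamembrane segment, leaves Flt3 active without its ligand.

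The duplication lies in exon 14 of Flt3, and the unmutated sequence of this exon is shown because every mouse carries a longer version of it in both alleles. Exon 14 of the 24 exons of the main Flt3 transcript has 133 bases and lies at chr5:147354799-147354931 on the minus strand of GRCm38 (GENCODE M21).
Flt3 exon 14: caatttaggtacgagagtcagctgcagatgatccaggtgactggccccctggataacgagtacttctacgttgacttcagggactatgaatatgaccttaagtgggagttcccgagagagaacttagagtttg
The deposited counts are summed per gene, so they do not show how many reads cover this exon. The level of Flt3 given here is therefore that of the mutated transcript in all 3 groups.

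The family lies in 3 clusters that each pair a class III receptor with a relative. On chromosome 5, Pdgfra (ENSMUSG00000029231, from 75152292 to 75198215) is followed by Kit (ENSMUSG00000005672, from 75574916 to 75656722) on the same strand after 376.7 kb, and by Kdr beyond it. Flt3 (ENSMUSG00000042817, from 147330741 to 147400489) lies far downstream on the same chromosome, near Flt1. On chromosome 18, Pdgfrb (ENSMUSG00000024620, from 61045150 to 61085061) and Csf1r (ENSMUSG00000024621, from 61100598 to 61132149) lie one after the other on the plus strand, 15.5 kb apart and with 0 annotated genes between them. The end of Csf1r overlaps exons of Hmgxb3 on the other strand. Whether counting used the strand is not given in the sources used here. Hmgxb3 averaged 24.4 CPM in AML WT and 16.4 CPM in AML KO BM, far below the level of Csf1r.

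Libraries held 28009258 to 39266815 counts, and levels are given as CPM, which are counts scaled to a common library size after TMM normalization. Gab2 itself was at 93.9, 68.5 and 61.6 CPM in the AML WT, 55.8 and 50.8 CPM in the AML HET and 35.0, 47.2 and 40.2 CPM in the AML KO mice, in the order of their replicate numbers. Gab2 fell by 0.87 on the log2 scale from AML WT to AML KO (standard error, SE, 0.18, edgeR adjusted p = 0.0420). Per the study, a neomycin cassette takes the place of some Gab2 exons, not of the whole gene. Counts summed per gene do not show which exons the counts left in AML KO cover, so they are no measure of functional Gab2. Every adjusted p of a gene is from the quasi-likelihood F-test of edgeR, adjusted by Benjamini and Hochberg's method over all genes. With 1 mouse left out, this p exceeded 0.05 (0.0783 to 0.159) for AML WT replicates 1 and 2, both AML HET mice, and AML KO replicates 1 and 3. AML KO replicate 2 stood apart from the other AML KO mice for several receptors, with the highest level of all 8 mice for Csf1r, Pdgfra and Pdgfrb. Because whole BM was sequenced, fewer cells of a type and less RNA per cell cannot be told apart.

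In AML KO relative to AML WT BM, 0 of the 5 receptors passed the adjusted threshold of 0.05 in edgeR, which 2.09% of all genes did (1.77% higher and 0.323% lower). At an unadjusted p under 0.05 there was 1 of 5, Pdgfrb, with 17.7% of all genes. This count turned on single mice. It was 0 of 5 when AML WT replicate 3 was left out, and 2 of 5 when AML KO replicate 2 was left out, where Csf1r and Pdgfra took the place of Pdgfrb. DESeq2 and limma-voom also gave 0 of 5 past the adjusted threshold and 1 of 5 at an unadjusted p under 0.05. The median log2 fold change of the receptors was -0.11, beside -0.02 over all genes. The groups did not overlap at 1 of 5 receptors, again Pdgfrb, which was higher in AML KO, and at 22.1% of all genes (12.3% higher and 9.83% lower).

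**Figure D1:**
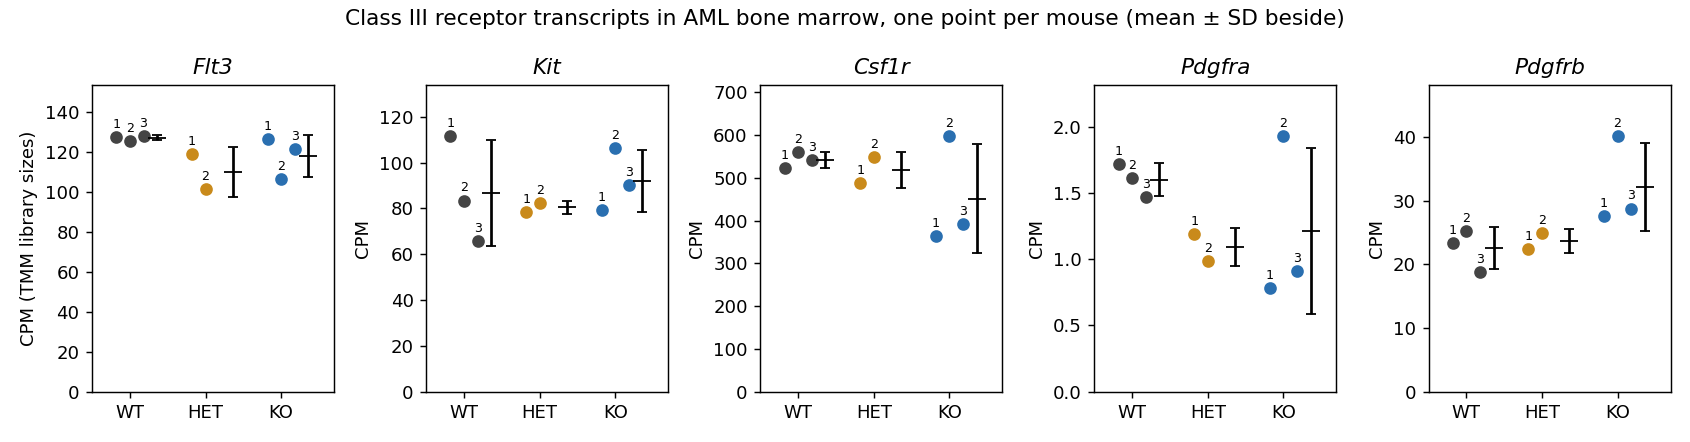
Level in CPM (y axis, from 0) of each receptor in every mouse, by Gab2 genotype (x axis); numbers are replicate numbers, and the bar beside each group is its mean ± SD (n = 3 AML WT, 2 AML HET, 3 AML KO). Flt3 stayed between 101.2 and 128 CPM in all 8 mice, while AML KO replicate 2 was the highest mouse for Csf1r, Pdgfra and Pdgfrb.

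Flt3 had almost the same level in the 3 AML WT mice, at 128, 125 and 128 CPM. The AML HET mice had 119 and 101.2 CPM, and the AML KO mice had 126, 106 and 121 CPM. Both AML HET mice lay below all AML WT mice, whereas 1 AML KO mouse lay within the AML WT range. Relative to AML WT, the AML KO log2 fold change was -0.11 (SE 0.12, edgeR adjusted p = 0.630), with a 95% interval from -0.37 to 0.16, which is 0.774-fold to 1.12-fold. Without AML KO replicate 2 the log2 fold change was -0.04 (edgeR adjusted p = 0.864). Flt3 was also the receptor with the smallest spread in the fit, with a biological coefficient of variation of 0.122 against 0.299 for Pdgfra, the largest of the 5.

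Kit, the receptor for stem cell factor, differed more among AML WT mice than between the groups. Its levels were 112, 83.4 and 65.6 CPM in AML WT, 78.2 and 82.5 CPM in AML HET and 79.3, 106 and 90.1 CPM in AML KO mice. All AML HET and AML KO mice lay inside the range that AML WT replicates 1 and 3 span. In AML KO relative to AML WT the log2 fold change was 0.08 (SE 0.19, edgeR adjusted p = 0.831), with a 95% interval from -0.35 to 0.51. The sign turned when AML WT replicate 3 (-0.08) or AML KO replicate 2 (-0.03) was left out. Together, 6 measured mast cell and basophil markers had 65.6 to 91.4 CPM in AML WT, 108 to 119 CPM in AML HET and 193 to 323 CPM in AML KO. Of the 6, 5 were higher and 1 lower in AML KO, and all 6 had an unadjusted p under 0.05, beside 17.7% of all genes. None of the 6 was at 0 in a mouse. The markers Fcer1a, Tpsb2, Cma1 and Mcpt4 of the same list are not among the genes counted. The 16 stem and progenitor (HSPC) markers summed to 817 to 1032 CPM in AML WT and 990 to 1095 CPM in AML KO mice. The AML HET mice had 873 to 1002 CPM. Of the 16, 13 were higher and 3 lower in AML KO, and 8 had an unadjusted p under 0.05, beside 17.7% of all genes. The part of any of these cells in the level of Kit was not tested.

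Csf1r, the receptor for the macrophage growth factors Csf1 and Il34, had the highest level of the family. The AML WT mice had 524, 560.5 and 542 CPM, and the AML HET mice had 488 and 548 CPM. The AML KO mice had 364, 598 and 393 CPM. AML KO replicates 1 and 3 were thus the lowest of all 8 mice and replicate 2 the highest. In AML KO relative to AML WT the log2 fold change was -0.26 (SE 0.18, edgeR adjusted p = 0.434), with a 95% interval from -0.67 to 0.15. Without AML KO replicate 2 it was -0.52 (edgeR adjusted p = 0.0739), whereas leaving out AML KO replicate 1 gave -0.13 (edgeR adjusted p = 0.825) and leaving out replicate 3 gave -0.17. The summed level of 13 monocyte markers followed the same order among AML KO mice, with 5363, 8078 and 5789 CPM by replicate number. It did not follow Csf1r in the other groups. The AML WT mice had 9869, 8218 and 7371 CPM, so the one with the lowest Csf1r had the highest sum. The AML HET mice had 7111 and 7033 CPM, again in the reverse order of Csf1r. Of the 13 monocyte markers 12 had a lower mean in AML KO, 0 passed the adjusted threshold in edgeR, and none was at 0 in a mouse. An unadjusted p under 0.05 was found for 4 of the 13, beside 17.7% of all genes. The 13 macrophage markers summed to 364 to 439 CPM in AML WT and 307 to 339 CPM in AML HET mice. In the AML KO mice they summed to 255, 381 and 270 CPM by replicate number. By gene, 9 of the 13 were higher and 4 lower in AML KO, and of 7 osteoclast markers 2 were higher and 5 lower. An unadjusted p under 0.05 was found for 7 of the 13 and 6 of the 7. The part of monocytes, macrophages or osteoclasts in the level of Csf1r was not tested.

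Pdgfra, a PDGF receptor of mesenchymal cells, was the rarest member, with 24 to 70 counts per mouse. Its levels were 1.72, 1.61 and 1.47 CPM in AML WT, 1.19 and 0.988 CPM in AML HET and 0.785, 1.93 and 0.914 CPM in AML KO mice. Every AML HET mouse and 2 of the 3 AML KO mice lay below all AML WT mice, and AML KO replicate 2 lay above them. In AML KO relative to AML WT the log2 fold change was -0.41 (SE 0.37, edgeR adjusted p = 0.550). Its 95% interval reached from -1.25 to 0.43, the widest of the family, which is 0.419-fold to 1.34-fold. Without AML KO replicate 2 it was -0.91 (edgeR adjusted p = 0.145), whereas leaving out AML KO replicate 1 gave -0.18 (edgeR adjusted p = 0.889) and leaving out replicate 3 gave -0.24.

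Pdgfrb, the PDGF receptor of pericytes and stromal cells, was the only receptor whose AML KO levels lay above all AML WT levels. The AML WT mice had 23.4, 25.3 and 18.9 CPM, the AML HET mice 22.4 and 25.0 CPM and the AML KO mice 27.7, 40.2 and 28.8 CPM. The AML HET mice lay inside the AML WT range. In AML KO relative to AML WT the log2 fold change was 0.51 (SE 0.18, unadjusted p = 0.0181 and edgeR adjusted p = 0.218), which is 1.43-fold with a 95% interval of 1.08-fold to 1.89-fold. It did not pass the threshold over all genes in any of 18 other fits, in which the adjusted p lay between 0.120 (DESeq2) and 0.371. Without AML KO replicate 2 the log2 fold change was 0.32 (edgeR adjusted p = 0.243). Together, 16 stroma and endothelium markers had 887 to 1496 CPM in AML WT mice. They had 782 to 866 CPM in AML HET and 554 to 902 CPM in AML KO mice. In AML KO, 7 of the 16 were higher and 9 lower, with 0 past the adjusted threshold in edgeR and none at 0 in a mouse. An unadjusted p under 0.05 was found for 6 of the 16, beside 17.7% of all genes. The part of stromal and endothelial cells in the levels of Pdgfra and Pdgfrb was not tested.

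Loss of 1 Gab2 allele was compared in the same way. Between AML HET and AML WT, 0 of 5 receptors had an adjusted p under 0.05 in edgeR, beside 0.0225% of all genes, and 0 of 5 had an unadjusted p under 0.05, beside 2.47%. DESeq2 and limma-voom gave 0 of 5 for both. The groups did not overlap at 2 of 5 receptors, Flt3 and Pdgfra, which were both lower in AML HET, and at 18.1% of all genes (9.53% higher and 8.61% lower). The log2 fold change was -0.21 for Flt3 (SE 0.13, 95% interval -0.50 to 0.09) and -0.56 for Pdgfra (SE 0.43, 95% interval -1.51 to 0.40). With 1 AML HET mouse left out, that of Flt3 was -0.33 or -0.10. With all mice, the log2 fold change was -0.11 for Kit, -0.06 for Csf1r and 0.07 for Pdgfrb.
For the remaining allele, AML KO was compared with AML HET, where 0 of 5 receptors passed in edgeR, as did 0% of all genes, with 0 of 5 at an unadjusted p under 0.05, beside 5.86%. DESeq2 and limma-voom gave 0 of 5 for both. The groups did not overlap at 1 of 5, Pdgfrb, which was higher in AML KO, and at 24.2% of all genes (13.2% higher and 11% lower). Pdgfrb had a log2 fold change of 0.44 (SE 0.20, edgeR adjusted p = 0.836), with a 95% interval from -0.01 to 0.90. Leaving out AML KO replicate 2 gave 0.25 for Pdgfrb, and Csf1r then had -0.46 (edgeR unadjusted p = 0.00913, adjusted p = 0.564). These comparisons share mice with the one of AML KO and AML WT and are not independent of it.

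**Figure D2:**
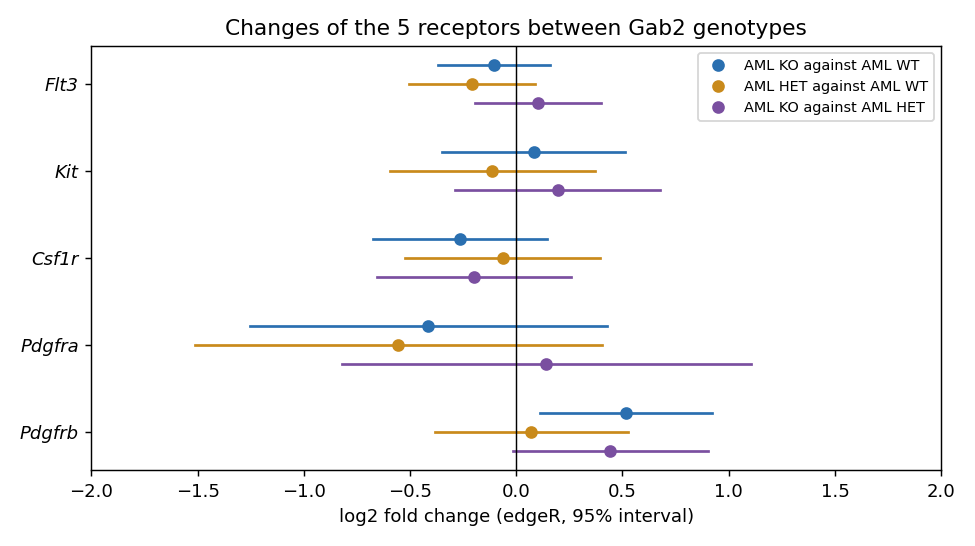
Log2 fold change (x axis) of each receptor (y axis) in the 3 comparisons of Gab2 genotypes, with points for edgeR estimates and lines for 95% intervals. Only the interval of Pdgfrb between AML KO and AML WT, 0.11 to 0.92, does not include 0, and its adjusted p was 0.218.

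Levels of different receptors were compared per kilobase of exons, as CPM per kb. Averaged over the 8 mice, Csf1r had 86.9 ± 14.3 (SD, n = 8), Flt3 19.3 ± 1.66, Kit 9.78 ± 1.70, Pdgfrb 4.83 ± 1.16 and Pdgfra 0.132 ± 0.0416 CPM per kb. No range of a receptor over the mice overlapped that of its neighbour in this order. The lowest value of Csf1r was 63.0 beside 20.7 as the highest of Flt3, and the lowest of Kit was 7.37 beside 7.33 as the highest of Pdgfrb, a narrow gap. In AML KO replicate 2, the mouse with that highest Pdgfrb value, Kit was at 11.9 CPM per kb. Thus the order Csf1r, Flt3, Kit, Pdgfrb, Pdgfra held in each mouse, whatever its Gab2 genotype.

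The ratio of the counts of 2 receptors within a library does not depend on the library size, and such ratios describe the proportions within the family. All 10 pairs were compared between AML KO and AML WT mice with an exact permutation test (two-sided, 3 against 3 mice), which cannot give a p below 0.1, or below 0.25 after the adjustment over the pairs found here. In 4 of the 10 pairs the groups did not overlap, and all 4 include Pdgfrb, so they are not independent of each other. Over all other 13304 genes of the table, a share added after the pairs were seen, 46.2% had a ratio to Pdgfrb that was lower in every AML KO than in every AML WT mouse. A lower ratio to Pdgfrb was thus common among all genes and not particular to the family.
The difference with the smallest SE, 0.13, was that of the neighbours Csf1r and Pdgfrb. Csf1r had 22.4, 22.1 and 28.7 counts for each Pdgfrb count in the AML WT mice and 21.8 and 21.9 in the AML HET mice, but 13.2, 14.9 and 13.6 in the AML KO mice. AML KO replicate 2, in which both genes were the highest of all mice, thus had a ratio close to those of the other AML KO mice. The mean log2 ratio was 0.80 lower in AML KO than in AML WT, at 3.79 ± 0.0914 against 4.60 ± 0.213 (SD, n = 3 each, exact permutation test, p = 0.1, adjusted p = 0.25). With any 1 of the 6 mice left out, the difference stayed between -0.87 and -0.68. The AML HET mice, with a mean of 4.45, lay just below the lowest AML WT mouse and above all AML KO mice.
The log2 ratio of Pdgfra to Pdgfrb was -3.80 ± 0.150 in AML WT and -4.81 ± 0.392 in AML KO mice (SD, n = 3 each, exact permutation test, p = 0.1, adjusted p = 0.25). In the AML HET mice it was -4.42 on average. Flt3 to Pdgfrb differed by -0.61 (SE 0.28) and Kit to Pdgfrb by -0.40 (SE 0.18), each with p = 0.1 and adjusted p = 0.25 in the exact permutation test. Flt3 to Pdgfrb became -0.37 when AML KO replicate 2 was left out, and Kit to Pdgfrb became -0.24 when AML WT replicate 1 was left out. For the 6 pairs without Pdgfrb the groups overlapped, with exact permutation p between 0.2 and 0.5 and adjusted p between 0.333 and 0.5. Flt3 to Kit had a difference of -0.22 (SE 0.30).

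**Figure D3:**
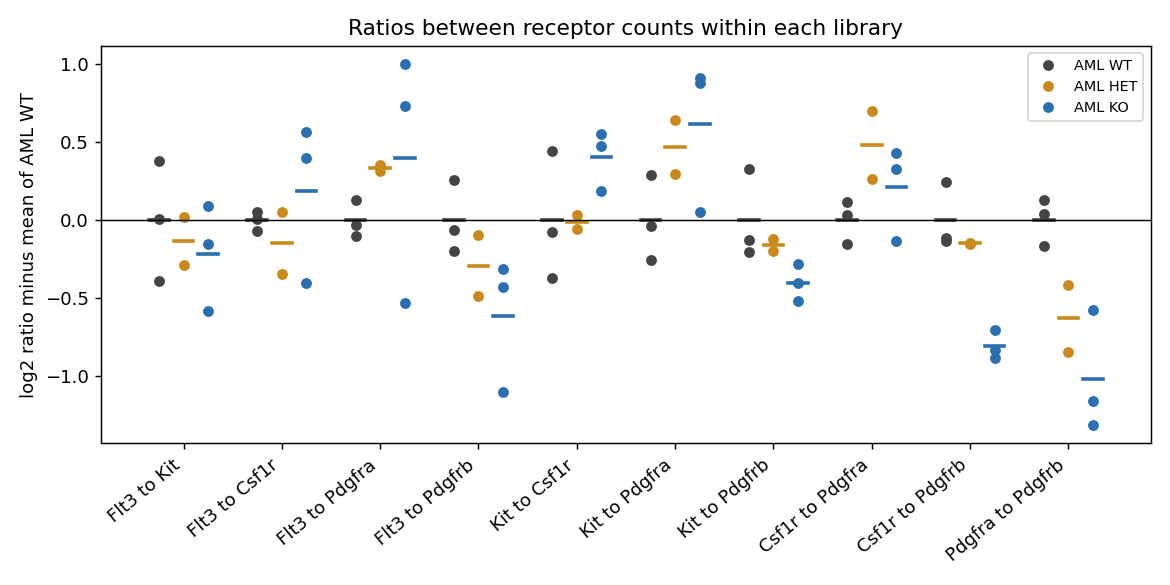
Log2 ratio of the counts of 2 receptors within each library, minus the mean of the AML WT mice (y axis), for the 10 pairs (x axis); points are mice and short lines are group means. The AML KO mice lay below all AML WT mice in the 4 pairs with Pdgfrb, by 0.80 on average for Csf1r to Pdgfrb.

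Ligands of the family were sparse in these libraries. Of 8 ligands, 4 are in the table. These are Kitl (stem cell factor, the ligand of Kit), Csf1 (a ligand of Csf1r), and Pdgfa and Pdgfb (ligands of the PDGF receptors). The ligands Flt3l, Il34, Pdgfc and Pdgfd are not among the listed genes. In AML KO relative to AML WT, 0 of 4 passed the adjusted threshold in edgeR and 0 an unadjusted p under 0.05, and DESeq2 gave adjusted p above 0.05 for each as well.
Csf1 was at 4.57, 5.15 and 7.01 CPM in AML WT, 7.29 and 5.42 CPM in AML HET and 5.85, 8.01 and 6.66 CPM in AML KO mice, with a log2 fold change of 0.29 in AML KO (SE 0.24, edgeR adjusted p = 0.502). It was 0.16 without AML WT replicate 1 or without AML KO replicate 2, and 0.49 without AML WT replicate 3. Kitl was at 2.37 to 2.90 CPM in AML WT mice, but at 1.80, 5.42 and 3.15 CPM in AML KO mice, and its log2 fold change of 0.40 (SE 0.37) became -0.08 without AML KO replicate 2. Thus the AML KO mouse with the most Csf1r, Pdgfra and Pdgfrb also had the most Kitl and Csf1 of all 8 mice. Pdgfa had a log2 fold change of 0.13 (SE 0.34) and Pdgfb, which platelets also carry, of -0.06 (SE 0.30). The sign of Pdgfa turned without AML WT replicate 1 (-0.11), and that of Pdgfb without AML WT replicate 3 (0.21), AML KO replicate 1 (0.09) or AML KO replicate 3 (0.02).

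**Figure D4:**
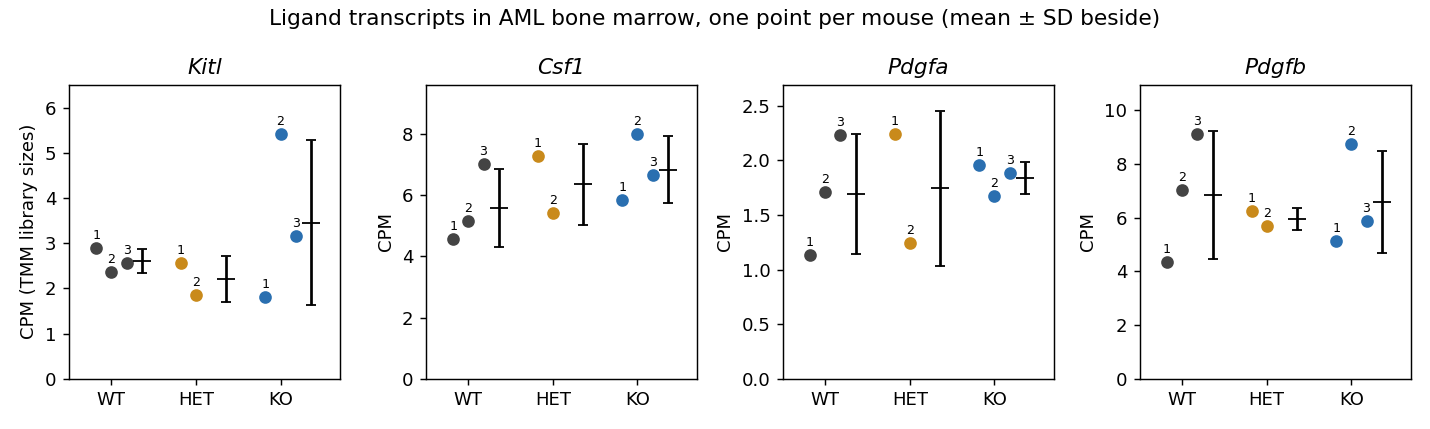
Level in CPM (y axis, from 0) of the 4 measured ligands in every mouse by Gab2 genotype (x axis), with replicate numbers above the points and the mean ± SD beside each group (n = 3 AML WT, 2 AML HET, 3 AML KO). The groups overlap for all 4, and AML KO replicate 2 has the highest Kitl, at 5.42 CPM.

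The VEGF receptors Flt1, Kdr and Flt4 are the closest relatives of the class III receptors and share the split kinase domain. Flt1, which lies near Flt3, was at 19.7, 17.2 and 12.2 CPM in AML WT, 13.5 and 9.56 CPM in AML HET and 6.57, 11.4 and 5.86 CPM in AML KO mice, where the groups of AML KO and AML WT did not overlap. Its log2 fold change was -1.05 (SE 0.29, edgeR adjusted p = 0.123), and the adjusted p was 0.0135 with DESeq2 and 0.0297 without AML KO replicate 2. Kdr, which lies near Kit, had -0.54 (SE 0.45) and Flt4 0.25 (SE 0.43), which became -0.26 without AML KO replicate 2. Kdr ranged from -1.13 without that mouse to -0.19 without AML WT replicate 3. None of the 3 passed in edgeR.

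Genes that carry the signal of class III receptors were described by 3 further lists of receptor-proximal genes, negative regulators and transcription factors. Of 35 receptor-proximal genes, 1 rose and 1 fell in AML KO relative to AML WT BM at an adjusted p under 0.05 in edgeR, beside 2.09% of all genes in either direction. At an unadjusted p under 0.05 there were 4 of 35, a smaller share than the 17.7% of all genes. By sign alone, 11 were higher and 24 lower. Their median log2 fold change was -0.09. The gene that fell was Gab2, the gene targeted in these mice, which is also counted in the 4 and the 24. Its fall follows from the design. The gene that rose was Src, a cytoplasmic tyrosine kinase. Src was at 2.73, 2.05 and 2.14 CPM in AML WT, 2.52 and 3.12 CPM in AML HET and 5.89, 5.10 and 5.42 CPM in AML KO mice. Every AML KO mouse was above every other mouse, with a log2 fold change of 1.24 (SE 0.23, edgeR adjusted p = 0.0245). Leaving out a single mouse gave adjusted p over the threshold in edgeR for AML WT replicates 2 (0.123) and 3 (0.0782) and AML KO replicates 1 (0.0788) and 3 (0.0847), with log2 fold changes of 1.16 to 1.37 over all 8 such fits. The Src family members Lyn, Fyn and Fgr had log2 fold changes of -0.23, -0.22 and -0.09 and did not pass, nor did Grb2 with 0.05 and Ptpn11, which encodes Shp2, with -0.14. Stat5a, with -0.18, and Stat5b, with -0.03, did not pass either.
Of 22 genes that restrain or shed these receptors, 0 passed in edgeR (2.09% of all genes did), with a median of -0.19. At an unadjusted p under 0.05 there were 4 of 22, close to the 17.7% of all genes. The largest differences were those of the ubiquitin ligase Cbl (-1.35), the docking protein Dok2 (0.77) and the Ras-ERK inhibitor Spred1 (-0.75). Cbl was at 156, 53.6 and 30.2 CPM in the AML WT mice, and its log2 fold change was -0.42 without AML WT replicate 1. Leaving out AML KO mice gave Cbl values from -1.90 (replicate 2) to -0.90 (replicate 1). Spred1 also had -0.42 without AML WT replicate 1. Dok2 had an adjusted p of 0.117 with edgeR and 0.0202 with DESeq2, and its groups did not overlap. Of the 22 genes, 2 were higher without overlap, beside 12.3% of all genes, and 5 were lower without overlap, beside 9.83%. Among the lower was Ptprc, with a log2 fold change of -0.59 (95% interval -0.91 to -0.27). It was at 571, 570 and 572 CPM in AML WT and 319, 422 and 396 CPM in AML KO mice.

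**Figure D5:**
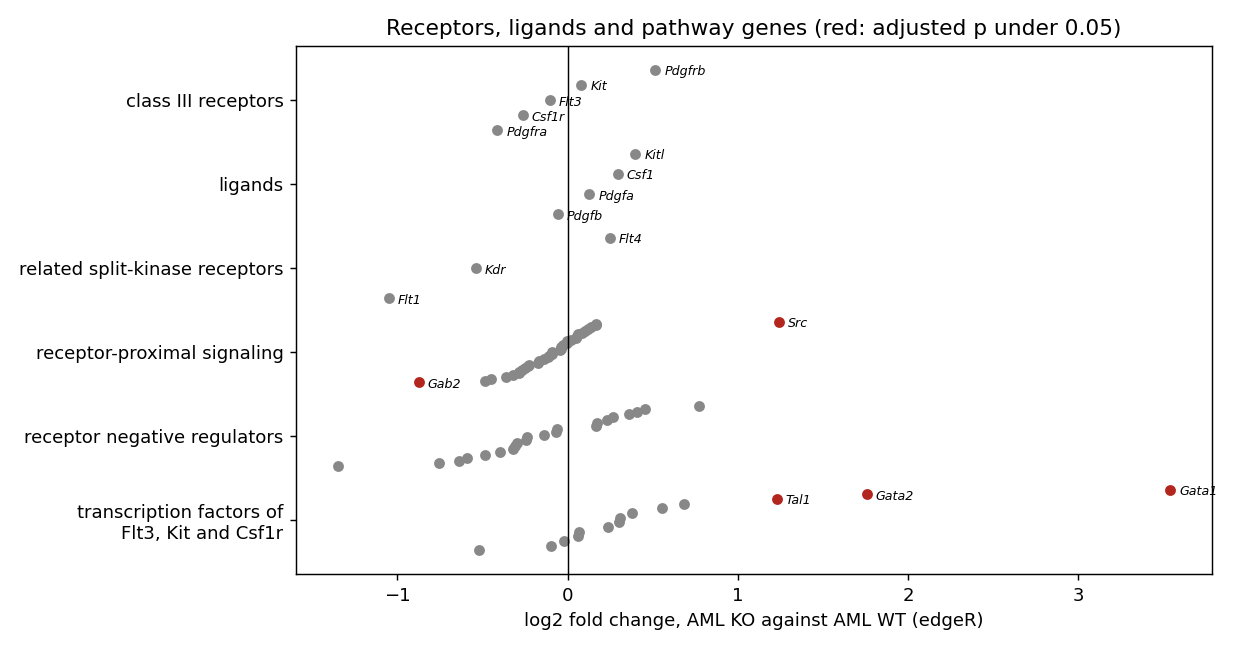
Log2 fold change of AML KO over AML WT BM (x axis, edgeR) of the receptors, their ligands and genes of the pathway, 1 point per gene, in rows by list (y axis). Points in red have an adjusted p under 0.05, which holds for Src, Gab2, Gata1, Gata2 and Tal1 and for 0 of the 5 receptors.

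Transcription factors known to act on the Flt3, Kit and Csf1r genes made up another list of 14. Of these, 3 rose in AML KO relative to AML WT and 0 fell, beside 2.09% of all genes in either direction. At an unadjusted p under 0.05 there were 6 of 14, beside 17.7% of all genes, and the median was 0.31. The 3 were Gata1 and Gata2, zinc finger factors of erythroid, megakaryocytic and mast cells, and Tal1, their partner in blood progenitors. Gata2 was at 9.20, 10.7 and 8.21 CPM in AML WT, 13.7 and 15.0 CPM in AML HET and 45.7, 24.1 and 25.0 CPM in AML KO mice, a log2 fold change of 1.76 (SE 0.25, edgeR adjusted p = 0.0102). Gata1 had 3.54 (SE 0.53, edgeR adjusted p = 0.0127) and Tal1 1.23 (SE 0.20, edgeR adjusted p = 0.0156). Leaving out AML WT replicate 2 gave adjusted p of 0.0579, 0.0579 and 0.0794 for Gata1, Gata2 and Tal1 in edgeR. Spi1, the ETS factor of myeloid cells, had 0.06, Cebpa 0.07, Runx1 -0.10 and Irf8 -0.02, and none of these passed. Cebpb had 0.69 (95% interval 0.20 to 1.17), Meis1 0.56 (0.21 to 0.90) and Myb 0.38 (0.04 to 0.72), and these did not pass either. By sign alone, 11 of the 14 were higher and 3 lower in AML KO. The groups did not overlap at 7 of 14, all higher, beside 12.3% of all genes that were higher without overlap.
Markers of several cell types were also compared between AML KO and AML WT. Past the threshold were 17 of 19 erythroid, 12 of 13 megakaryocyte and platelet and 6 of 12 mature neutrophil markers, all higher in AML KO, with 0 lower in these lists. Over all genes, 1.77% passed as higher and 0.323% as lower. The mast cell and basophil list had 4 of 6 higher and 1 lower, the HSPC list 3 of 16 higher and 0 lower, the macrophage list 3 of 13 higher and 1 lower, the osteoclast list 1 of 7 higher and 2 lower and the dendritic cell list 0 of 11 higher and 1 lower. By sign, 10 of the 11 dendritic cell markers were lower in AML KO and 1 higher, with a median log2 fold change of -0.96. An unadjusted p under 0.05 was found for 7 of the 11, beside 17.7% of all genes. They summed to 1039 to 2489 CPM in AML WT, 1114 to 1510 CPM in AML HET and 767 to 1092 CPM in AML KO mice. The part of dendritic cells in the level of Flt3 was not tested. For B cells 0 of 8 and for T and NK cells 0 of 10 passed in edgeR. An unadjusted p under 0.05 was found for 1 and 2 of these, beside 17.7% of all genes. The summed erythroid level was 344 to 478 CPM in AML WT, 756 to 2405 CPM in AML HET and 1656 to 5717 CPM in AML KO mice, no marker of any list was at 0 in a mouse, and their part in the levels of Gata1, Gata2 and Tal1 was not tested.

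The sequences before the Flt3 and Kit genes were searched for the letters such factors bind, because Gata2 and Tal1 rose while neither receptor passed the test. Sequences are from RefSeq (GRCm38.p6) and end before the first annotated transcript base. They lie at chr5:147400490-147400739 on the minus strand for Flt3 (250 bases) and at chr5:75574737-75574915 on the plus strand for Kit (179 bases). Capitals mark matches on either strand, and no matches overlapped.
Flt3 upstream: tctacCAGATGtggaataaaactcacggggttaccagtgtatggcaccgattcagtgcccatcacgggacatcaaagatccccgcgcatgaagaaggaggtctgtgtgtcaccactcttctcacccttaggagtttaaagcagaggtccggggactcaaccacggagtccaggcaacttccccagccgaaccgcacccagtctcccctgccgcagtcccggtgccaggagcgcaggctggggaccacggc
Kit upstream: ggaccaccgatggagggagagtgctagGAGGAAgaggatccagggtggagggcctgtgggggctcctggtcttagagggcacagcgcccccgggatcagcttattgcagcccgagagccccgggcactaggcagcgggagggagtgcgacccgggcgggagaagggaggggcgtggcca
Of 5 motifs searched, Flt3 had 1 match to CAGATG, an E-box form used by Tal1, which 14.4% of 32851 promoters of that length hold. Kit had 1 match to GAGGAA, the core of Spi1 sites, held by 17.1% of promoters of its length. Neither window held AGATAA, the letters bound by the Gata family. The STAT form TTCNNNGAA had 0 matches in either. The Runx form TGTGGT had 0 matches too. Among promoters of 250 bases, 9.99% hold AGATAA and 7.02% hold TTCNNNGAA. A match is only a run of letters, and distant enhancers lie outside these windows.

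Genes whose level followed each receptor most closely over the 8 libraries were ranked by Pearson's r of log2 CPM, as a description over 13305 genes in libraries that share their normalization. For Kit these were Stxbp5, Kif2c, Cpd, Sipa1l1 and Ptk7, with r of 0.97 to 0.98. For Csf1r they were Psap, Dusp7, Scpep1, Pomk and Gdpd5 (0.96 to 0.98), with the lysosomal genes Psap and Scpep1 among them. For Pdgfrb they were Selenon, Parvb, Spn, Agtrap and Maged2 (0.96 to 0.99), for Pdgfra Kirrel, Plekho2, Myof, Srebf2 and M6pr (0.97 in each), and for Flt3 Spats2, Kctd5, Aste1, Gpn3 and Gtpbp4 (0.89 to 0.95). None of the 25 genes passed the adjusted threshold in AML KO relative to AML WT in edgeR, beside 2.09% of all genes. They were picked for following receptors that did not pass in these same libraries, so this count is no separate result. No gene appears for more than 1 receptor.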

How the data were processed

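RNA of whole BM was sequenced on an Illumina HiSeq4000. The authors deposited raw counts per Ensembl gene, 1 column per mouse and without normalization. The submitters' processing notes name Trimmomatic 0.36, STAR 2.5.2b and mm10, and the counter is not given in the sources used here. The listed genes exclude those of the lowest counts, by a filter not given in the sources used here. Of 13305 identifiers, 13266 were found in GENCODE M21.
Counts were analysed with edgeR 4.0.16 in R 4.3.3 (TMM, filterByExpr, which removed 0 genes, robust quasi-likelihood test, Benjamini-Hochberg adjustment over all genes, threshold 0.05). All 8 mice entered 1 fit with genotype as its only term. The procedure was tested on simulated data. Standard errors and 95% intervals derive from the F statistic and its degrees of freedom. Levels per kb use the union of exons, and ratios within a library add 0.5 counts. Alternatives were DESeq2 1.42.0, limma-voom (limma 3.58.1), other normalizations and filters, a replicate block, Gab2 allele number as a linear term, only the groups compared, and each mouse left out in turn. Intervals give the uncertainty of a difference between group means, from the spread between mice estimated over all genotypes together.
Named were the receptors, Gab2, all ligands, of each pathway list the genes past the threshold or else the 3 with the largest change, and the 5 genes most alike to each receptor. Lyn, Fyn, Fgr, Grb2, Ptpn11, Stat5a, Stat5b, Ptprc, Spi1, Cebpa, Cebpb, Runx1, Irf8, Meis1, Myb and Hmgxb3 were named after their values were seen. Receptors and lists were chosen with earlier results of these data known. Protein sequences were not used here.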

Additional observations from a re-analysis of the deposited data

How the results depend on the processing

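For the 5 receptors, 0 passed the threshold in each of the 3 comparisons under all alternatives run. Between AML KO and AML WT, 278 genes were called, 730 with DESeq2, 19 with the replicate block, and 40 to 370 with single mice left out. Between AML HET and AML WT it was 3 genes, 59 with DESeq2, 1 with limma-voom, 0 with the replicate block, 5 with only the groups compared, and 1 to 5 with single mice left out. Between AML KO and AML HET it was 0 genes (780 at an unadjusted p under 0.05), 77 with DESeq2, 3 with only the groups compared, and 0 to 4 with single mice left out. The mouse numbers were not taken to pair samples. Deviations of same-numbered mice correlated at -0.51, -0.11 and -0.13 for AML WT with AML KO, 0.076 and 0.29 for AML WT with AML HET, and -0.14 and -0.040 for AML HET with AML KO. With the replicate block, the sign of Pdgfrb between AML HET and AML WT turned from 0.07 to -0.019, and the adjusted p was 0.125 for Src, 0.165 for Gab2, 0.0911 for Gata1, 0.0677 for Gata2 and 0.106 for Tal1. Signs also turned when 1 mouse was left out. Between AML KO and AML WT the log2 fold changes then ranged from -0.080 to 0.29 for Kit, -0.075 to 0.71 for Kitl, -0.11 to 0.38 for Pdgfa, -0.32 to 0.21 for Pdgfb and -0.26 to 0.49 for Flt4. Between AML HET and AML WT they ranged from -0.27 to 0.11 for Kit, -0.15 to 0.015 for Csf1r and -0.031 to 0.16 for Pdgfrb. Between AML KO and AML HET they ranged from -0.0091 to 0.22 for Flt3 and -0.36 to 0.38 for Pdgfra. With the longest transcript as length, levels were 107 CPM per kb for Csf1r, 30.2 for Flt3, 16.6 for Kit and 0.194 for Pdgfra. The low counts of Pdgfra limit its precision. Causes of these shifts were not tested.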
